A study of Mus musculus with 3 samples.

Results

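Retinoid metabolism genes were followed in mouse liver across 3 RNA sequencing libraries. The 9 genes, of 41799 in the tables, were Rbp4, Lrat, Rdh11, Rdh16, Dhrs3, Aldh1a1, Cyp26a1, Cyp26b1 and Rarb. They were selected by symbol, with their counts in these same 3 libraries already in view, so their differences are given as a description. All livers came from male C57BL/6 mice aged 14 weeks. The DfCS-Ib library came from mice on a high-fat diet (HFD) that were gavaged with DfCS-Ib at 40 mg/kg, the HFD library from mice on that diet alone, and the chow library from mice on regular chow. DfCS-Ib is a code name for what the series calls a sulfated oligosaccharide. Each group is described as 8 mice and is represented by 1 library, and the number of mice behind a library is not given in the sources used here. The composition of the diet, the length of feeding and the time of tissue collection are not given there either.

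Dietary vitamin A reaches the liver mainly as retinyl esters in chylomicron remnants, which hepatocytes take up and hydrolyse. It is stored as retinyl esters, mostly in hepatic stellate cells, where lecithin-retinol acyltransferase, Lrat, makes the ester. Hepatocytes secrete retinol bound to retinol binding protein 4, Rbp4. Retinol dehydrogenases convert retinol to retinal, reductases such as Dhrs3 turn retinal back, and retinal dehydrogenases such as Aldh1a1 oxidise it irreversibly to retinoic acid. Retinoic acid binds the nuclear receptors Rara, Rarb and Rarg, which pair with the Rxr receptors on DNA, and the Cyp26 cytochromes clear it by hydroxylation. In mouse and human, Cyp26a1, Rarb and Dhrs3 are textbook genes induced by retinoic acid itself.

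Because the receptors bind direct repeats of a 6-base half-site, the RefSeq promoter windows of the 9 genes (300 bases, from 250 before each start site, GRCm38.p6) were searched on both strands. The half-site was AGGTCA as the consensus form, with AGTTCA as one variant, GGGTCA as another and GGTTCA as the last, repeated with 1, 2 or 5 bases between them. All 9 genes had at least 1 window, 14 windows in all, and 2 genes had a match, both with the 5-base spacing. That spacing was found in the windows of 31 of 27025 genes with a window (0.115%), the 1-base spacing in 0.263% and the 2-base spacing in 0.311%. The matches are shown because they set Cyp26a1 and Rarb apart by sequence, with the half-sites in capitals, each read 5′ to 3′ on the strand that carries the repeat.
Rarb: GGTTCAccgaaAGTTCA
Cyp26a1: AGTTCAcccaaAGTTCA

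The Cyp26a1 repeat lies on the strand opposite to the gene at chr19:37697776-37697792, which is 32 to 16 bases before the start site and in no annotated GENCODE exon. The Rarb repeat lies on the gene's own strand at chr14:16575513-16575529, before an internal start site of Rarb, inside the gene's span and within 2 GENCODE exons of other Rarb transcripts. The stretch before Cyp26a1, chr19:37697688-37697797 on the plus strand, is shown as the gene's strand reads it, with the same half-sites in capitals.
Cyp26a1 upstream: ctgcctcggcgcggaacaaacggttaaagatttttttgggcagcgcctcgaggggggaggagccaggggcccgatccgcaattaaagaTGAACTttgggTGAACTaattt

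No match in a window says only that these letters are not in it, and Cyp26b1, Dhrs3 and the others had none. Leaving out Cyp26a1 and Rarb, 29 genes held the 5-base repeat, of which 18 were in the tables and 3 reached a mean of 1 CPM (the count relative to the library total, scaled with TMM factors): Blvrb, Gm32342 and Prss27. None of these 3 differed by 2-fold in any comparison. Over all measured genes, 3.47% were at least 2-fold higher and 2.27% lower in HFD over chow. The shares were 2.46% and 2.02% in DfCS-Ib over HFD, and 1.62% and 0.433% in DfCS-Ib over chow. At such shares 3 genes are too few to describe genes with the repeat.

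The libraries held 10969699 counts for DfCS-Ib, 12279537 for HFD and 11028671 for chow. With 1 library a group there is no replicate check and no p-value, and each difference describes these libraries, not the treatments. Ratios are of scaled counts, and the values in parentheses after them are 95% exact (Clopper-Pearson) intervals from the split of a gene's counts between 2 libraries, which cover counting error only. A gene was counted as at least 2-fold higher or lower by its log2 ratio of CPM plus 1, among the 13153 genes that averaged 1 CPM or more, and all 9 retinoid genes passed that filter. In whole liver, fewer cells of a type and less RNA per cell cannot be told apart. Of 12 hepatocyte markers, 11 were measured and Asgr1 was listed at 0 in all 3 libraries. The markers summed to 153836, 127866 and 168310 CPM in the DfCS-Ib, HFD and chow libraries. Of the 11 measured, 3 were at least 2-fold lower and 0 higher in HFD over chow, against 2.27% and 3.47% of all measured genes. In DfCS-Ib over HFD 2 were higher and 0 lower, against 2.46% and 2.02%. Their median log2 ratios were -0.41 and 0.4 in the same order.

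The 2 retinoic acid hydroxylases stood apart in different libraries. Cyp26b1 was low in the HFD library alone, and Cyp26a1 was low in the DfCS-Ib library alone. Both genes were highest in the chow library.

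Cyp26a1 (chromosome 19, 37697808 to 37701536 of mm10), the hydroxylase that retinoic acid induces in hepatocytes, had 36 counts in the DfCS-Ib library, 220 in the HFD library and 226 in the chow library. Scaled, these were 3.36, 17.1 and 21.0 CPM in the same order. The DfCS-Ib library was lower than the HFD library by 5.10-fold (3.57 to 7.46) and lower than the chow library by 6.26-fold (4.39 to 9.16). Between the HFD and chow libraries the ratio was 0.814 (0.673 to 0.984), so the diet library was slightly below chow.

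Cyp26b1 (chromosome 6, 84571414 to 84593908), the second enzyme of the family, had 270 counts in the DfCS-Ib library, 28 in the HFD library and 389 in the chow library, or 25.2, 2.18 and 36.1 CPM. It was lower in the HFD library than in the chow library by 16.6-fold (11.3 to 25.3). In the DfCS-Ib library it was 11.6-fold (7.82 to 17.7) above the HFD library, and its ratio to chow was 0.696 (0.594 to 0.815). On RPKM plus 1, where so low a gene is flattened, its log2 ratios were -2.09 for HFD over chow and 1.68 for DfCS-Ib over HFD, against -3.55 and 3.04 on CPM plus 1. Cyp26c1, the remaining family member, had 2, 4 and 3 counts in the DfCS-Ib, HFD and chow libraries, too few for a comparison.

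Per length, the balance of the pair differed in each library. The RPKM of Cyp26a1 was 0.59 times that of Cyp26b1 in the DfCS-Ib library, 34.8 times in the HFD library and 2.57 times in the chow library. Cyp26a1 therefore made up 37.1%, 97.2% and 72.0% of their summed RPKM, and the sum itself was 4.97, 10.3 and 15.98 RPKM in the DfCS-Ib, HFD and chow libraries. On this scale, which divides by length and uses no TMM factors, the sum was lowest with DfCS-Ib and highest on chow. The low end rests on stated lengths of 1781 bases for Cyp26a1 and 7877 for Cyp26b1. Undivided, the 2 genes had 36 and 270 counts in the DfCS-Ib library and 220 and 28 in the HFD library. By counts or by CPM their sum was therefore lowest in the HFD library, and still highest on chow.

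**Figure D1:**
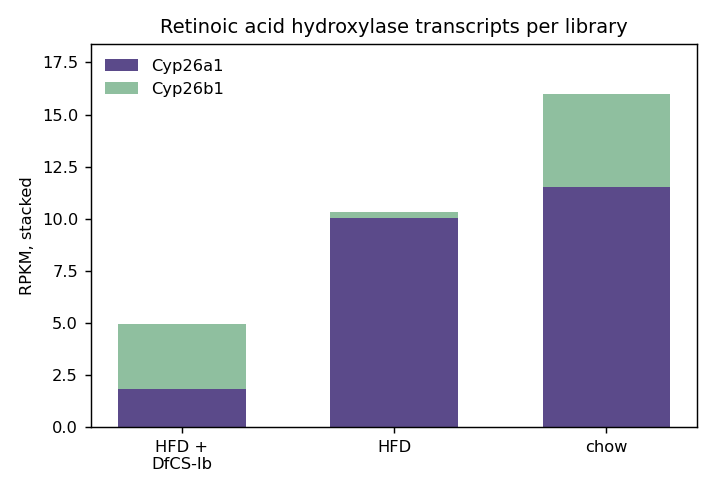
Stacked RPKM of Cyp26a1 and Cyp26b1 (y axis) in the DfCS-Ib, HFD and chow libraries (x axis), 1 library each. Cyp26b1 nearly disappears from the HFD bar, at 0.289 RPKM, while Cyp26a1 is 1.84 RPKM in the DfCS-Ib bar against 10.1 RPKM in HFD and 11.5 RPKM in chow.

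Other genes came closest to these patterns by the distance between their pairs of log2 ratios (HFD over chow, DfCS-Ib over HFD), which rests on 3 libraries. For Cyp26a1 the nearest 5 were 1810064F22Rik, the homeobox gene Hhex, Cyp3a16, Clic5 and the hepcidin gene Hamp2, at distances of 0.73 to 1.05. Among them Hhex had the most reads, with 422 counts in the DfCS-Ib library, 1329 in the HFD library and 983 in the chow library. Only Cyp3a16 lay below 0 in HFD over chow as Cyp26a1 did, at -0.61 against -0.28. In DfCS-Ib over chow, Clic5 and Hamp2 were short of 2-fold lower, at -0.89 and -0.88. 1810064F22Rik and Clic5 had 8 counts each in the DfCS-Ib library. For Cyp26b1 the nearest 5 were the noncoding Ctcflos, Nipal1, the transporter gene Slc16a5, Gm36691 and the fatty acid hydroxylase Cyp4a14, at 0.28 to 0.55. The Cyp3a and Cyp4a genes and Hamp2 have close copies, and Ctcflos is an antisense gene, so their counts are uncertain.

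**Figure D2:**
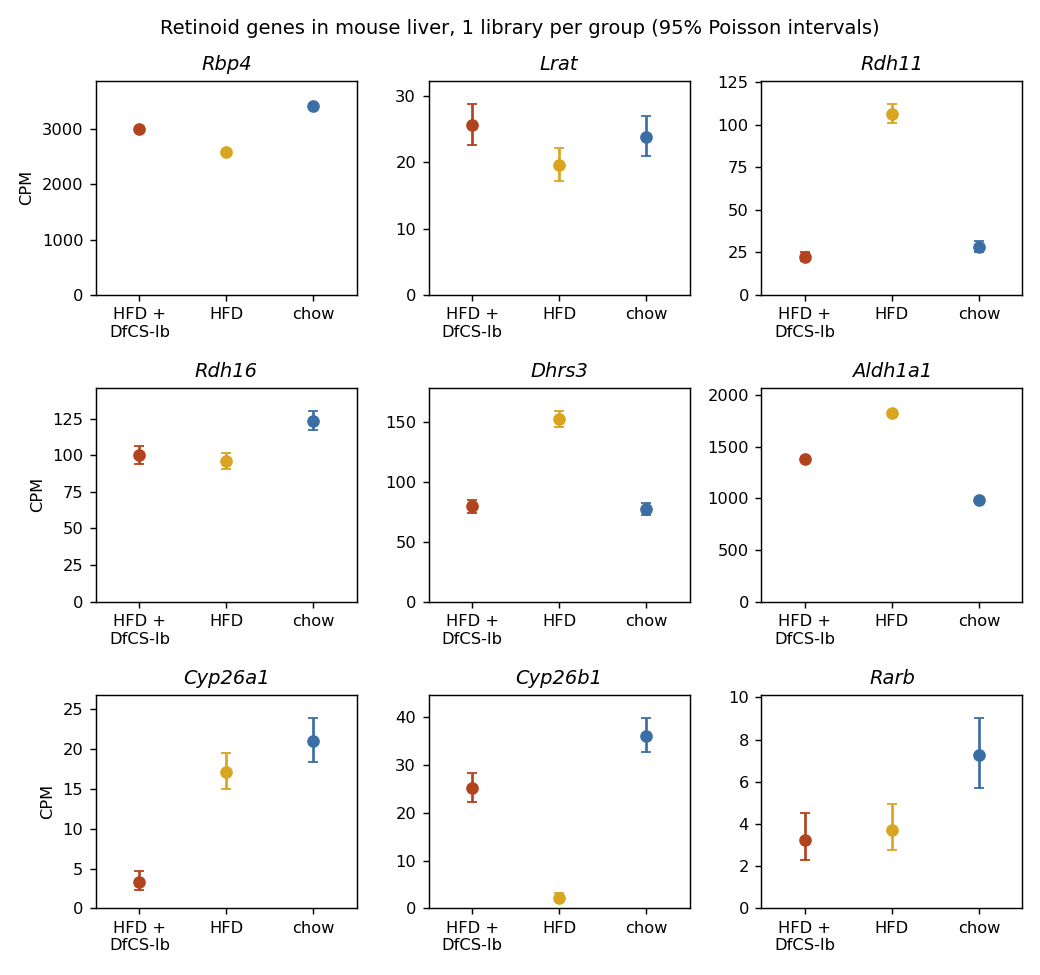
Level of each of the 9 genes in CPM (y axis, from 0) in the DfCS-Ib, HFD and chow libraries (x axis), 1 point per library with a 95% Poisson interval for counting error. Rdh11 and Dhrs3 peak in the HFD library, Cyp26b1 is lowest there, Cyp26a1 is lowest with DfCS-Ib, and Rbp4, Lrat and Rdh16 vary little.

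Transport and storage genes varied little, as did Rdh16. Rbp4 (chromosome 19, 38116620 to 38125321) had 3003, 2586 and 3425 CPM in the DfCS-Ib, HFD and chow libraries and was the most abundant of the 9 per length, at 2264, 2089.7 and 2576 RPKM. Its HFD level was 0.755 (0.744 to 0.766) of chow, and its DfCS-Ib level was 1.16 (1.14 to 1.18) times that of HFD. These ratios are precise because of the depth of Rbp4, but they are small. The ratio to HFD also varied with the scaling, with a log2 value of 0.12 to 0.22.

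Lrat (chromosome 3, 82892582 to 82903974), the esterifying enzyme, had 25.6, 19.6 and 23.9 CPM in the DfCS-Ib, HFD and chow libraries. The DfCS-Ib and chow libraries did not differ beyond counting error, at a ratio of 1.07 (0.902 to 1.28), and the HFD library was below both. In liver Lrat marks stellate cells, and the sum of the other stellate markers had the same order, though their median in HFD over chow was near 0. Of 18 such markers, none listed at 0 throughout, 17 were measured. All 18 summed to 735, 573 and 638 CPM in the DfCS-Ib, HFD and chow libraries. In HFD over chow 2 of the 17 measured were at least 2-fold higher and 0 lower, against 3.47% and 2.27% of all measured genes. The median log2 ratio of the 17 was -0.02 in HFD over chow, 0.24 in DfCS-Ib over HFD and 0.28 in DfCS-Ib over chow. In DfCS-Ib over HFD 0 were at least 2-fold higher and 0 lower, against 2.46% and 2.02% of all measured genes. In DfCS-Ib over chow 1 was higher and 0 lower, against 1.62% and 0.433%. The part of stellate cells in the Lrat and Cyp26b1 values was not tested.

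The enzymes that interconvert retinol and retinal split into a pair that peaked on the high-fat diet and one that did not. Rdh11 (chromosome 12, 79174335 to 79191819), a microsomal retinal reductase, had 240 counts in the DfCS-Ib library, 1369 in the HFD library and 302 in the chow library, or 22.4, 106 and 28.1 CPM. The HFD library exceeded chow by 3.79-fold (3.34 to 4.31). The DfCS-Ib library was below HFD by 4.76-fold (4.14 to 5.48), close to chow with a ratio of 0.797 (0.670 to 0.947).

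Dhrs3 (chromosome 4, 144892609 to 144927645), which reduces retinal to retinol, had 79.4, 152 and 76.9 CPM in the DfCS-Ib, HFD and chow libraries. Its ratios were 1.98 (1.82 to 2.15) for HFD over chow, 0.522 (0.481 to 0.566) for DfCS-Ib over HFD and 1.03 (0.937 to 1.14) for DfCS-Ib over chow. On the log2 scale of CPM plus 1 the first 2 were 0.97 and -0.93, just short of 2-fold, and with library totals in place of TMM factors they were 1.08 and -1.03. Gene models on the opposite strand overlap Dhrs3, Lrat and Rarb, and no strand setting of the counting is stated, so the reads of the 2 strands cannot be told apart there.

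Rdh16 (chromosome 10, 127801090 to 127815839), a hepatic retinol dehydrogenase with close copies beside it, had 100.1, 96.1 and 124 CPM in the DfCS-Ib, HFD and chow libraries. The DfCS-Ib and HFD libraries did not differ beyond counting error, with a ratio of 1.04 (0.959 to 1.13), and the sign of that log2 ratio depended on the scaling (0.06 with TMM factors, as low as -0.04 otherwise). Both lay below chow, at ratios of 0.809 (0.746 to 0.878) for DfCS-Ib and 0.777 (0.719 to 0.840) for HFD.

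Aldh1a1 (chromosome 19, 20601982 to 20643462), which makes retinoic acid from retinal, was second in abundance, with 1376 CPM in the DfCS-Ib library, 1823 in the HFD library and 979 in the chow library. Unlike Dhrs3, it was still above chow with DfCS-Ib, by 1.41-fold (1.37 to 1.44). The HFD library was above chow by 1.86-fold (1.82 to 1.91), and DfCS-Ib over HFD was 0.755 (0.739 to 0.771). Its close copy Aldh1a7 had 152, 272 and 178 CPM in the same order, and the division of reads between the copies is uncertain.

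Rarb (chromosome 14, 16430839 to 17082331), the receptor whose own gene retinoic acid induces, was the scarcest of the 9 per length in the DfCS-Ib and chow libraries. It had 35 counts in the DfCS-Ib library, 48 in the HFD library and 78 in the chow library, or 3.26, 3.73 and 7.25 CPM. Both high-fat libraries were below chow, DfCS-Ib by 2.22-fold (1.47 to 3.41) and HFD by 1.94-fold (1.34 to 2.85). DfCS-Ib and HFD did not differ beyond counting error, at 0.875 (0.549 to 1.38). With so few reads the pseudocount matters, and the log2 ratio of DfCS-Ib over chow on CPM plus 1 was -0.95.

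**Figure D3:**
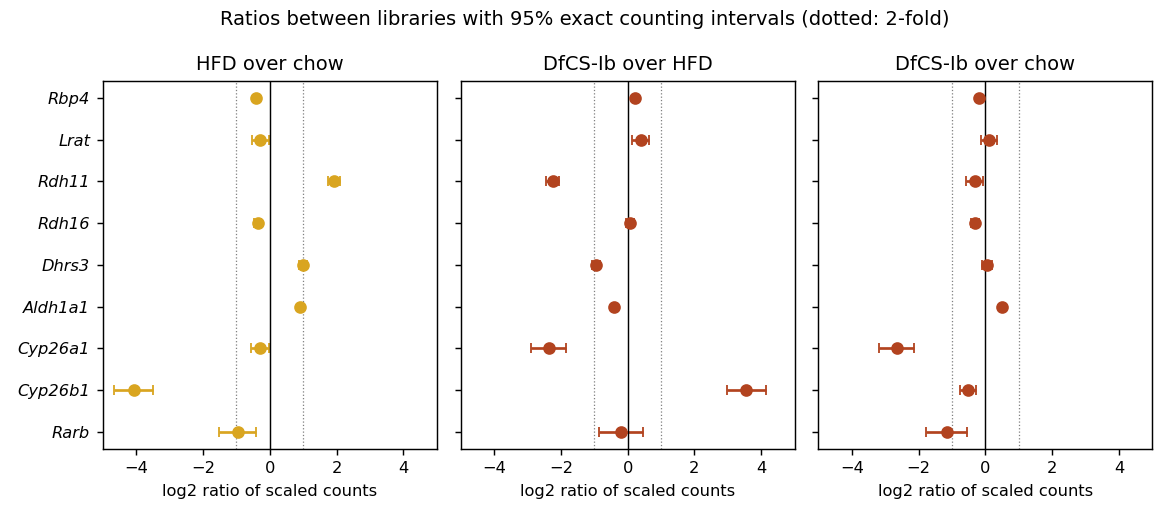
Log2 ratio of scaled counts (x axis) for each of the 9 genes (y axis) in the comparisons HFD over chow, DfCS-Ib over HFD and DfCS-Ib over chow, coloured by the first-named library, with 95% exact intervals for counting error and dotted lines at 2-fold. Cyp26b1 and Rdh11 lie beyond 2-fold in opposite directions in the first 2 comparisons, Cyp26a1 lies beyond 2-fold only in the 2 that involve DfCS-Ib, and Rarb passes the line in DfCS-Ib over chow on this scale, which has no pseudocount.

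Counted over the 9 genes, HFD over chow had 1 gene at least 2-fold higher (Rdh11) and 1 lower (Cyp26b1), where 3.47% of all measured genes were higher and 2.27% lower. DfCS-Ib over HFD had 1 higher (Cyp26b1) and 2 lower (Cyp26a1 and Rdh11), against 2.46% and 2.02% of all genes. With library totals in place of TMM factors this last split turned round, from 324 genes higher and 266 lower to 261 higher and 340 lower, while the calls of Cyp26a1, Cyp26b1 and Rdh11 stayed. DfCS-Ib over chow had 0 higher and 1 lower (Cyp26a1), against 1.62% and 0.433%. Since the genes were picked with these values known, the counts say nothing of how unusual the group is. The comparisons share libraries, so a gene high in HFD over chow tends to be low in DfCS-Ib over HFD.

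The remaining retinoid genes were read from a wider list of 73 symbols, 72 of them in the tables, which was chosen with earlier results of these libraries known and includes the 9. Measured genes numbered 54, and 7 were listed at 0 in all 3 libraries. Among these was Rxrb, an Rxr receptor gene with broad expression, so a 0 in these tables does not show absence.

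In HFD over chow, 8 of the 54 were at least 2-fold higher (14.8%, against 3.47% of all genes) and 3 lower (5.56%, against 2.27%), with a median log2 ratio of 0.29 against 0.02 over all genes. The higher genes were Rdh11, Adh1, Adh4, Aox1, Aox3, Bco2, Ces1g and Rarres1. Adh1, the main cytosolic alcohol dehydrogenase that also oxidises retinol, had 959.7, 2275 and 829 CPM in the DfCS-Ib, HFD and chow libraries, with HFD above chow by 2.75-fold (2.68 to 2.81). Adh4, of the same family, had 101, 212 and 66.5 CPM, with HFD above chow by 3.18-fold (2.93 to 3.46).

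The aldehyde oxidases Aox1 and Aox3, which can oxidise retinal, followed the same order of HFD, DfCS-Ib, chow. Aox1 had 79.7, 175 and 69.3 CPM and Aox3 had 624, 963 and 312 CPM in the DfCS-Ib, HFD and chow libraries. All 5 measured genes of retinal oxidation lay above 0 in HFD over chow (median 0.90) and below 0 in DfCS-Ib over HFD (median -0.63). Of all 13153 measured genes, 6832 lay above 0 in the first comparison and 6771 below 0 in the second. Both comparisons use the HFD library, so the 2 directions are not separate observations. Aldh1a1 and its close copy Aldh1a7 are both among the 5. The carotenoid cleaving enzyme Bco2 had 14.7, 28.6 and 10.04 CPM, the carboxylesterase Ces1g 136, 271 and 91.7 CPM, and the retinoic acid responsive gene Rarres1 76.6, 74.4 and 34.2 CPM. Bco2 is overlapped by Il18 and Aox3 by another gene model, each on the opposite strand, and their reads are uncertain for that reason. Rarres1 was as high with DfCS-Ib as on the diet alone, at a ratio of 1.03 (0.936 to 1.13).

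Lower in the HFD library, beside Cyp26b1, were Pnpla2, a lipase that can hydrolyse retinyl esters, and Retsat, which saturates retinol. Pnpla2 had 124, 44.9 and 141 CPM and Retsat 833, 479 and 1022 CPM in the DfCS-Ib, HFD and chow libraries. HFD was below chow by 3.15-fold (2.86 to 3.47) for Pnpla2 and by 2.13-fold (2.07 to 2.20) for Retsat. The Retsat call was lost with library totals and with RPKM, at a log2 ratio of -0.99 against -1.09 with TMM factors. It held with DESeq2 size factors.

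In DfCS-Ib over HFD, 2 of the 54 were at least 2-fold higher (Cyp26b1 and Pnpla2; 3.7%, against 2.46% of all genes) and 5 lower (Rdh11, Cyp26a1, Adh1, Adh4 and Aox1; 9.26%, against 2.02%). The median log2 ratio of the 54 was -0.09 against -0.01 over all genes. With library totals 9 were lower, where all genes lower rose from 266 to 340. With RPKM 7 were lower and with DESeq2 size factors, another scaling, 5, so this count varied with the scaling used. Ces1g and Rxrg lay just short of 2-fold lower. In DfCS-Ib over chow the list centred on 0.00, the same as all genes, with 2 genes at least 2-fold higher (Hsd17b6 and Rarres1; 3.7%, against 1.62%) and 1 lower (Cyp26a1; 1.85%, against 0.433%). Hsd17b6, whose product acts on retinol and on steroids, had 63.5, 43.4 and 24.2 CPM in the DfCS-Ib, HFD and chow libraries.

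**Figure D4:**
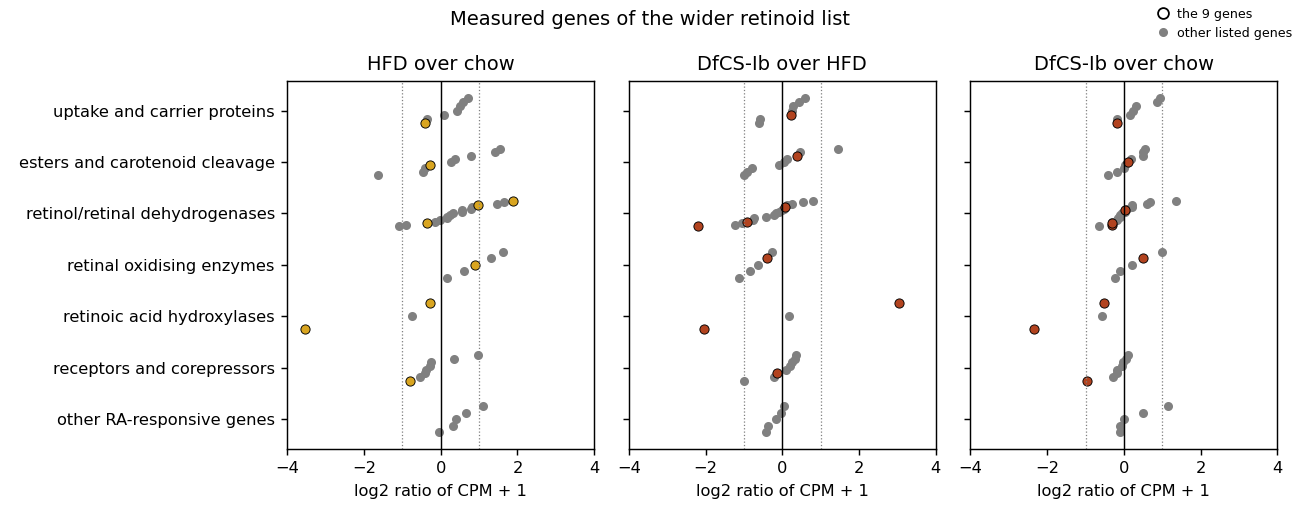
Log2 ratio of CPM plus 1 (x axis) for the 54 measured genes of the wider list, grouped by role (y axis), in HFD over chow, DfCS-Ib over HFD and DfCS-Ib over chow, with 1 point per gene, outlined and coloured for the 9 genes, and dotted lines at 2-fold. The 5 retinal oxidising enzymes sit right of 0 in the first comparison and left of it in the second, and Cyp26a1 stands alone below -2 in the third.

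Of the other measured Rar and Rxr receptors, Rxrg differed most in HFD over chow and in DfCS-Ib over HFD. Rxra, the abundant partner receptor of hepatocytes, had 494, 393 and 475 CPM in the DfCS-Ib, HFD and chow libraries. Rara had 13.2, 15.7 and 12.1 CPM and Rarg 4.94, 4.04 and 5.76 CPM. Rarg did not differ beyond counting error in any comparison. Rxrg had 28, 80 and 29 counts, with HFD above chow by 2.31-fold (1.49 to 3.66) on scaled counts and a log2 ratio of 0.97 on CPM plus 1. The DfCS-Ib library was below HFD by 2.38-fold (1.53 to 3.81), just short of the 2-fold rule on CPM plus 1. At these low counts both Rxrg ratios passed 2-fold with library totals, at 1.05 and -1.08.

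Markers of other cells differed between the libraries too. All 12 macrophage and Kupffer cell markers were measured, summing to 865, 512 and 405 CPM in the DfCS-Ib, HFD and chow libraries. Of these, 5 were at least 2-fold higher in DfCS-Ib over chow, where 1.62% of all measured genes were. In DfCS-Ib over HFD 2 were higher, against 2.46%, and none was at least 2-fold lower in any comparison. The 12 endothelial markers summed to 716, 599.6 and 669 CPM. Adipocyte markers, of interest because fat also makes Rbp4, summed to 10.7, 12.1 and 6.88 CPM. Only 2 of the 6 were measured, and Lep and Retn were listed at 0 in all libraries. Cholangiocyte markers summed to 40.9, 54.4 and 41.9 CPM, with 4 of 7 measured.

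The 10 pericentral markers summed to 3839.7, 3157 and 3663 CPM in the DfCS-Ib, HFD and chow libraries. In HFD over chow 2 of them were at least 2-fold higher and 1 lower, against 3.47% and 2.27% of all measured genes. In DfCS-Ib over HFD 2 were higher and 1 lower, against 2.46% and 2.02%. The 10 periportal markers summed to 9616, 5491 and 11434 CPM. Of these, 5 were at least 2-fold lower and 0 higher in HFD over chow, against 2.27% and 3.47% of all measured genes. In DfCS-Ib over HFD 3 were higher and 0 lower, against 2.46% and 2.02%. In DfCS-Ib over chow 0 were higher and 1 lower, against 1.62% and 0.433%. The part of these markers in the retinoid gene values was not tested.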

How the data were processed

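Total RNA of liver was sequenced in 3 libraries, 1 per group. The submitters' processing notes name TopHat2 and the mm10 build. How reads were assigned to genes, and whether strand was used, is not stated. The authors deposited raw read counts per gene, per the file headers. They also deposited RPKM, which equalled the count divided by the stated gene length and the library's own total to within 0.000506% for genes with many counts. CPM values were computed from the counts and TMM factors of 0.978 (DfCS-Ib), 1.05 (HFD) and 0.976 (chow), using edgeR 4.0.16 in R 4.3.3. Log2 ratios used a pseudocount of 1 CPM, over genes averaging 1 CPM or more. A count of 0 allows up to 3 counts, or 0.273, 0.244 and 0.272 CPM on unscaled totals in the same order. The scaling and counting steps were tested on simulated data. The 9 genes, the gene lists and the 2-fold rule were chosen with earlier results of these data known. Named genes were the 9, the listed retinoid genes at least 2-fold apart in any comparison, the Rar and Rxr receptors, and the 5 nearest patterns to each Cyp26 gene. Further genes of the list and the gene families named for context were added after their values were seen. Alternatives were library totals, DESeq2 1.42.0 size factors, RPKM, 2 other pseudocounts, no filter, leaving out the 50 most abundant genes, thinning to equal totals and a 1.5-fold threshold. Promoter sequences are RefSeq's, GRCm38.p6, the assembly behind mm10. A withheld marker value is not reported here.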

Additional observations from a re-analysis of the deposited data

How the results depend on the processing

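All 6 ratios of the 9 genes that passed 2-fold also passed it, in the same direction, under the 8 alternatives other than the threshold. Of these 8, leaving out the filter could not move a ratio, since all 9 genes pass it. Over the 27 ratios of the 9 genes, 26 kept their sign and 24 their side of 2-fold throughout; the exceptions in side were Dhrs3 (HFD over chow and DfCS-Ib over HFD) and Rarb (DfCS-Ib over chow), and the exception in sign was Rdh16 (DfCS-Ib over HFD). Rbp4 is itself among the 50 most abundant genes and has no value where those were left out. With library totals or RPKM, 2 of the 9 genes were at least 2-fold higher in HFD over chow. With a pseudocount of 0.5 CPM, or with the 50 most abundant genes left out, 2 of the 9 and 2 of the wider list were lower in DfCS-Ib over chow, with 103 and 114 of all genes. Of the wider list's calls, Retsat in HFD over chow was lost with library totals and with RPKM. With library totals 9 of the wider list were lower in DfCS-Ib over HFD, against 5 with TMM factors or DESeq2 size factors. The cause of these shifts was not tested. A pseudocount of 5 CPM reduced the numbers of all genes to 230 higher and 164 lower (HFD over chow), 166 and 128 (DfCS-Ib over HFD) and 82 and 21 (DfCS-Ib over chow). At 1.5-fold they were 1370 and 1015, 1002 and 942, and 748 and 402 in the same order, against 457 and 298, 324 and 266, and 213 and 57 at 2-fold. At 1.5-fold, 3 of the 9 genes were higher and 2 lower in HFD over chow and 2 lower in DfCS-Ib over chow, and of the wider list 17 were higher and 6 lower, 4 and 15, and 7 and 3. Library totals moved the median of all genes to 0.11 (HFD over chow) and -0.10 (DfCS-Ib over HFD). No paired analysis was possible because each group had 1 library. Depth limits Cyp26a1 with DfCS-Ib, Cyp26b1 on HFD and Rarb throughout.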
